A study of Mus musculus with 6 samples.

Results

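Chemokine transcripts were examined in sorted mouse bone marrow stem and progenitor cells. The 10 genes were Cxcl9, Cxcl10, Cxcl2, Cxcl12, Cxcl16, Ccl3, Ccl4, Ccl5, Ccl6 and Ccl9, taken by symbol from the 22475 genes of the deposited count table, each with 1 row. All 10 passed the filter on low counts. A list of further chemokine symbols matched 20 more genes. The cells had been sorted by flow cytometry as Lin- cKit+ Sca1+, a gate rich in haematopoietic stem and multipotent progenitor cells. Both groups of mice carried FLT3-ITD on both alleles. This duplication inside the gene makes the receptor kinase FLT3 signal without its ligand. The control group (FLT3-ITD) had wild type miR-155, and the other group (FLT3-ITD miR-155-/-, below KO) had a homozygous deletion of this microRNA. A group without FLT3-ITD was not analysed here. Each group had 3 libraries, and each library was 1 pool of RNA from 3 mice. The p-values therefore measure the spread between pools.

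Chemokines are small secreted proteins that steer leukocytes through receptors coupled to G proteins, and their names follow the spacing of the first cysteines (CC or CXC). CXCL9 and CXCL10 are the classical interferon-inducible chemokines and attract activated T and NK cells through CXCR3. CCL3, CCL4, CCL5 and CXCL2 are inflammatory chemokines that NF-kB signalling induces, while CXCL12, made by bone marrow stroma, retains stem cells in their niche through CXCR4. The genes lie in families. Cxcl9 (chromosome 5, 92321347 to 92328079, GRCm38) and Cxcl10 (chromosome 5, 92346638 to 92348889) are neighbours on the minus strand, 18.6 kb apart, and Cxcl2 is on the same chromosome (90903871 to 90905938). Ccl5, Ccl9, Ccl6, Ccl3 and Ccl4 share a stretch of chromosome 11 (83525778 to 83664683), which also carries Cxcl16 (70453983 to 70459984). Cxcl12 is on chromosome 6 (117168535 to 117181367).

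The promoters of the CXC genes on chromosome 5 are shown because Cxcl10, Cxcl9 and Cxcl2 gave the patterns described below. The windows run from 250 bases before to 50 after the start site, 5' to 3' on the gene's strand (RefSeq, GRCm38.p6). Capitals mark matches to the interferon-stimulated response element core (ISRE; GAAA, any 2 bases, GAAA) or to an NF-kB site (GGGA, any 4 bases, CC), searched on both strands.
Cxcl10, chr5:92348840-92349139, minus strand: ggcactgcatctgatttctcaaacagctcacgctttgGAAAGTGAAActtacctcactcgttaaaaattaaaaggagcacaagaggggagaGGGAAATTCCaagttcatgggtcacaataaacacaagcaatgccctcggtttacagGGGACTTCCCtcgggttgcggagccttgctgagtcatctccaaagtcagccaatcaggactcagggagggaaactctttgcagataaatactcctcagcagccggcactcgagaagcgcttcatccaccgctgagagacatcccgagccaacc
Cxcl9, chr5:92328030-92328329, minus strand: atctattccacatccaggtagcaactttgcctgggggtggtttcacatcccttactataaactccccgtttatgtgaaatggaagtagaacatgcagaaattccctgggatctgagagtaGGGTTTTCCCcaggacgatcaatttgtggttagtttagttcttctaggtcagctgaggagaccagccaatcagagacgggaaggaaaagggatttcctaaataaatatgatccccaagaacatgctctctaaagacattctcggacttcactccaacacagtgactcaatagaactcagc
Cxcl2, chr5:90903649-90903948, plus strand: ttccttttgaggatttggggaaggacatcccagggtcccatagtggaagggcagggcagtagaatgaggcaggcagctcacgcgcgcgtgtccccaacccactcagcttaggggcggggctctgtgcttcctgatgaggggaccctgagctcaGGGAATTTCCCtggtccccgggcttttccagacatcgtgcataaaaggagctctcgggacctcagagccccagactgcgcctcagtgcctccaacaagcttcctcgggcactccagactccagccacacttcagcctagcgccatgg

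Of the 7 members with a promoter in the RefSeq table, 1 held the ISRE core, namely Cxcl10, where the match begins 213 bases before the start. The same core was in 3.44% of the 32851 promoters of that length. NF-kB site matches were in 3 of the 7 (Cxcl10, Cxcl9 and Cxcl2), against 20.7% of all promoters. Cxcl10 had them at 159 and 103 bases before the start, Cxcl9 at 130, and Cxcl2 had 2 overlapping matches on opposite strands at 97 and 96. The gamma-activated site (GAS; TTC, any 3 bases, GAA) was in 0 of the 7 windows and in 8.30% of all promoters. These are matches of letters and not measured binding.

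miR-155-5p, an arm of the deleted microRNA, is shown with its seed (bases 2 to 8) in capitals, because its match was searched in the 3' UTRs of the chemokines. Sites of miR-155-3p, shorter matches and coding sequences were not searched.
miR-155-5p: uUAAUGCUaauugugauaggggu
Cxcl12 3' UTR: aggttctAGCATTAaacagat
Cxcl12 was the 1 member of 10 with a match to this seed in its longest annotated 3' UTR, 1202 bases into a UTR of 5188 bases (GENCODE M21). Capitals in its line mark the match. Such a match was in 8.75% of the 15787 genes of the table with an annotated 3' UTR.

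Library totals lay between 6843129 and 9443615 counts, and the 10 chemokines took 2382 to 3660 of them. Genes of the gate were present in every library, with 1583 to 3373 counts of Kit and 799 to 1119 of Ly6a, which encodes Sca1. Markers of cells outside the gate were present too. Summed CPM (counts relative to the library total, with TMM factors) of 10 macrophage genes was 839 and 628 in control and KO replicate 1, against 115 to 207 in the other 4 libraries. Summed CPM of 8 dendritic cell genes was 1017 in KO replicate 1 and 376 to 568 elsewhere. Plasma cell genes (5 measured) summed to 3024 to 4368 CPM in the controls and 664 to 1718 in the KO. No marker gene of these lists was at 0 in any library. The replicate numbers recur in both groups. Libraries of equal number deviated from their group means together (r = 0.57, 0.53 and 0.22), so a fit with the number as a block is also given for part of the results. In RNA pooled from sorted cells, fewer cells of a type and less RNA per cell cannot be told apart.

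Cxcl10 was the 1 chemokine of the 10 that passed the test between the groups. It had 13.8, 13.98 and 13.3 CPM in the 3 control libraries and 27.4, 33.9 and 32.9 CPM in the 3 KO libraries. Every KO library lay above every control library, and the spread was narrow in both groups (13.7 ± 0.355 and 31.4 ± 3.501 CPM; SD, n = 3). The controls had 127, 122 and 109 counts, with 95% Poisson intervals of 106 to 151, 101 to 146 and 89.5 to 131. Counting error alone is thus wider than the spread of the control libraries. Cxcl10 rose 2.29-fold, a log2 fold change of 1.20 ± 0.13 (SE; 95% interval 0.90 to 1.49; adjusted p = 0.0339 in edgeR over 13217 genes). In this fit it had the smallest p of all genes that were higher in the KO. The gene Iigp1 had the same adjusted p (0.0339 in edgeR). Its adjusted p was smaller than that of Cxcl10 with the replicate block (0.00192 in edgeR) and in DESeq2 (7.28e-09). The background was small, as 0.159% of the genes tested passed and 0.0151% passed higher in the KO. In the pairs of number 1, 2 and 3, Cxcl10 was higher in the KO by 0.98, 1.26 and 1.29 on the log2 scale. With the replicate block its log2 fold change was 1.19 ± 0.12 (SE; adjusted p = 0.00482 in edgeR). The authors' deposited table gave 1.20, with an adjusted p of 3.81e-08, and 0.639% of its genes passed. DESeq2 also called Cxcl10 alone among the members (adjusted p = 3.58e-08), where 0.961% of all genes passed and 0.053% passed higher in the KO. The size held when 1 library was left out (1.13 to 1.29), whereas the call did not. The edgeR adjusted p was 0.117, 0.101 and 0.186 without control replicates 1, 2 and 3, 0.0980 and 0.0574 without KO replicates 2 and 3, and 0.0292 without KO replicate 1.

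**Figure D1:**
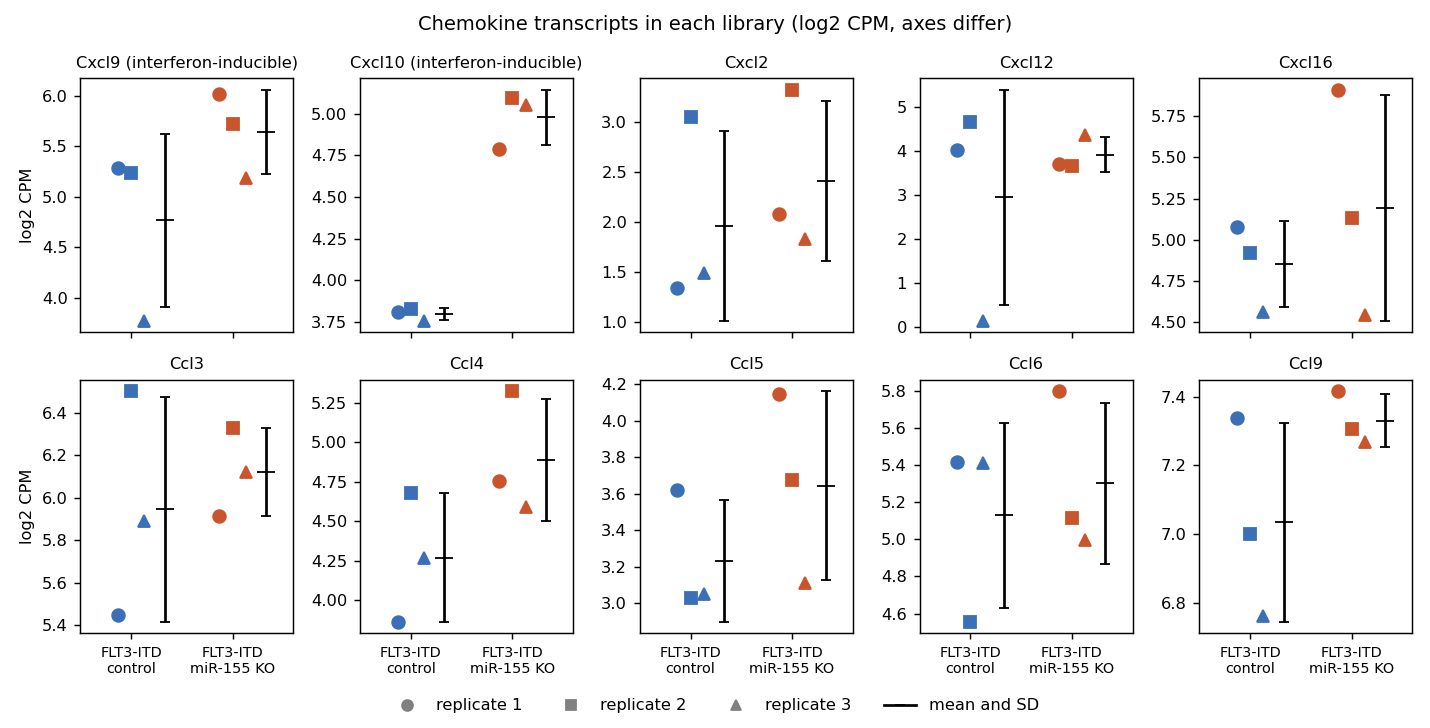
Level of each chemokine (y axis, log2 CPM, a separate axis per gene) in the 3 control (blue) and 3 KO (orange) libraries, with the marker shape giving the replicate number and the black bar the group mean and SD. Cxcl10 is the panel in which the groups do not overlap, and control replicate 3 stands far below the other libraries for Cxcl12.

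Cxcl9, the neighbouring CXCR3 ligand, had overlapping groups. Its levels were 38.8, 37.4 and 13.4 CPM in the controls and 64.4, 52.3 and 36.2 CPM in the KO. KO replicates 1 and 2 were the highest of all, and KO replicate 3 lay below control replicates 1 and 2. Its log2 fold change was 0.77 ± 0.39 (SE; adjusted p = 0.9996 in edgeR), and with the replicate block 0.84 ± 0.17 (SE; adjusted p = 0.0876). Without control replicate 3 the log2 fold change was 0.42. Within the pairs it was higher in the KO by 0.73, 0.48 and 1.41. Both libraries of number 3 lay below the other 4, a pattern found in 7.01% of the genes tested. Cxcl10 made up 26.2%, 27.2% and 49.8% of the counts of the pair in the controls and 29.8%, 39.3% and 47.6% in the KO, so this share overlapped between the groups. Cxcl11, the remaining CXCR3 ligand, had 5, 5 and 2 counts in the controls and 9, 5 and 7 in the KO. At these low counts it was not tested.

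The inflammatory CC chemokines did not pass the test. Ccl4, an attractant of monocytes and T cells, had 14.3, 25.3 and 19.0 CPM in the controls and 26.8, 39.8 and 23.8 CPM in the KO. Each KO library was above the control of equal number, while KO replicate 3 lay below control replicate 2. The log2 fold change of Ccl4 was 0.63 ± 0.26 (SE; adjusted p = 0.9996 in edgeR), and 0.62 ± 0.13 with the replicate block (adjusted p = 0.110). Without KO replicate 2 it was 0.37. Ccl3, which binds CCR1, had 43.4, 90.4 and 59.1 CPM in the controls and 60.1, 80.3 and 69.3 CPM in the KO. The KO libraries of Ccl3 lay inside the range of the controls, with a log2 fold change of 0.12 ± 0.26 (SE). Ccl3 and Ccl4 lie 13.2 kb apart. Ccl5, a ligand of CCR1 and CCR3 that T and NK cells also make, had 12.0, 7.91 and 8.05 CPM in the controls and 17.4, 12.5 and 8.39 CPM in the KO. It was higher in the KO library of each pair, by 0.06 to 0.65, and its log2 fold change of 0.45 ± 0.30 (SE) did not pass. It was 0.17 without KO replicate 1, and 0.68 without control replicate 1 or KO replicate 3.

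Cxcl2, a neutrophil attractant that acts on CXCR2, was high in the libraries of replicate number 2 of both groups. It had 2.28, 8.02 and 2.56 CPM in the controls and 3.98, 9.72 and 3.30 CPM in the KO. Both libraries of number 2 were the highest, with 70 and 76 counts against 21 to 26 in the others. Its log2 fold change was 0.41 ± 0.60 (SE; adjusted p = 0.9996 in edgeR), and 0.44 ± 0.22 with the block. In a test of the number itself, chosen after the values were seen, Cxcl2 (adjusted p = 0.0234 in edgeR) and Cxcl9 (adjusted p = 0.0475) passed, 2 of the 10 members against 5.55% of all genes. The libraries of number 2 were also the highest 2 for Ccl3, as for 10.9% of all genes. Libraries of number 1 were the highest 2 for Ccl6 and Ccl9, as for 16.1% of all genes, and those of number 3 the lowest 2 for Cxcl9 and Cxcl16. For Ccl6 this was nearly a tie, with 42.5 CPM in control replicate 1 and 42.3 CPM in control replicate 3. What the libraries of 1 number share was not tested.

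**Figure D2:**
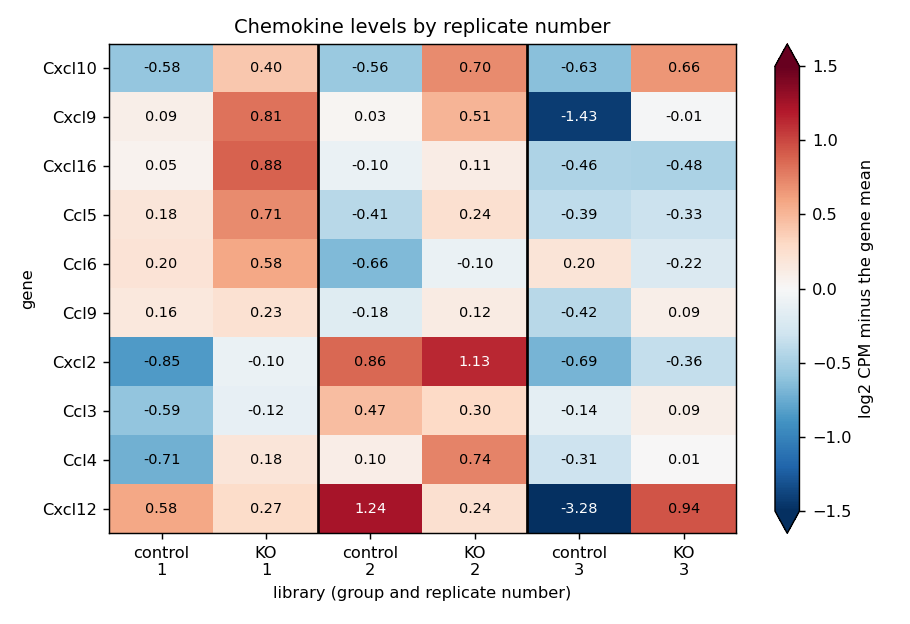
Level of each chemokine relative to its mean over the 6 libraries (colour and printed value, log2 CPM minus the gene mean; colours saturate at the ends of the scale), with control and KO libraries of equal replicate number side by side. Cxcl10 differs within each number, whereas Cxcl2 and Ccl3 are high in both libraries of number 2 and Cxcl16 is low in both of number 3.

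Ccl9 and Ccl6, CCR1 ligands that mouse myeloid cells produce, had, with Ccl3, the smallest log2 fold changes of the CC genes. Ccl9 had 162, 128 and 108 CPM in the controls and 171, 158 and 154 CPM in the KO. KO replicates 2 and 3 lay below control replicate 1, so the groups overlapped. The log2 fold change of Ccl9 was 0.28 ± 0.14 (SE), with an interval from -0.06 to 0.61. It was 0.45 without control replicate 1 and 0.16 without control replicate 3. Ccl6 had 42.5, 23.3 and 42.3 CPM in the controls and 55.4, 34.4 and 31.6 CPM in the KO. It had a log2 fold change of 0.16 ± 0.29 (SE) and an interval from -0.52 to 0.84. Neither passed.

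Cxcl16, a membrane-bound CXCR6 ligand that the proteases ADAM10 and ADAM17 release, had 33.5, 30.02 and 23.4 CPM in the controls and 59.8, 34.8 and 23.1 CPM in the KO. KO replicate 1 stood above all others and KO replicate 3 was the lowest. The log2 fold change was 0.43 ± 0.33 (SE), and 0.003 without KO replicate 1. KO replicate 1 was also the library with the highest dendritic cell marker sum given above, whose part in this was not tested. Adam10 (0.01) and Adam17 (0.01, log2 fold change) did not pass.

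Cxcl12 had the widest spread of the 10 genes. It had 146, 219 and 7 counts in the controls and 83, 97 and 148 counts in the KO, or 15.8, 25.1 and 0.853 CPM against 12.7, 12.4 and 20.4 CPM. Control replicate 3 stood apart, and the 95% Poisson interval of its 7 counts, 2.81 to 14.4, covers counting error only. The log2 fold change of Cxcl12 was 0.12 ± 0.81 (SE), and 0.37 ± 0.76 with the replicate block. It turned to -0.43 without control replicate 3. Limma-voom, which averages logs, gave 0.99. Lepr, a marker of the perivascular stromal cells that make CXCL12 in marrow, was low in the same library. Lepr had 50, 49 and 1 counts in the controls and 25, 14 and 62 in the KO, and was singled out of the stroma list after its values were seen. The whole list of 8 stromal and endothelial genes summed to 149 CPM in control replicate 3 and 158 to 184 CPM in the other 5 libraries, and its gene Col1a1 had 34 counts there against 2 to 62. The part of stromal RNA in the level of Cxcl12 was not tested.

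**Figure D3:**
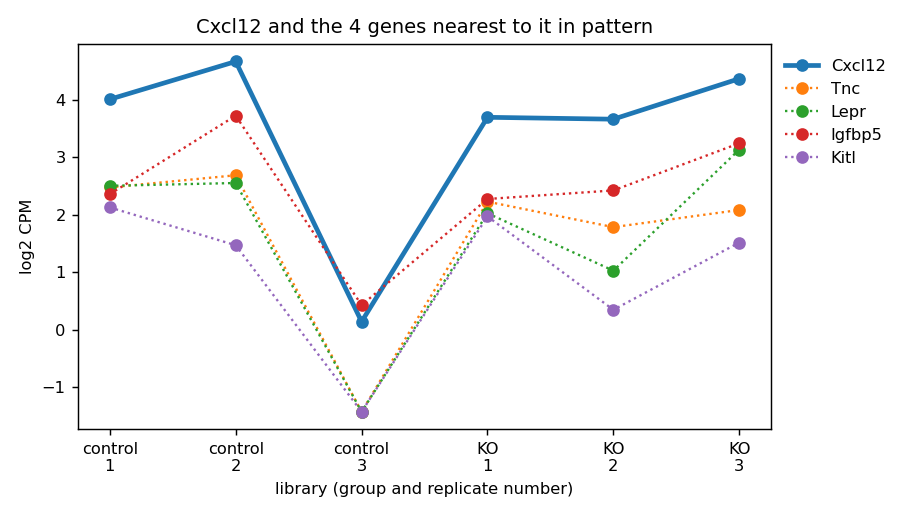
Level (y axis, log2 CPM) of Cxcl12 (thick line) and of Tnc, Lepr, Igfbp5 and Kitl, the 4 genes whose pattern over the 6 libraries was nearest to it, by library on the x axis. All 5 are lowest in control replicate 3, and the lines join libraries only to guide the eye.

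Genes with the most similar pattern were found by the root mean square distance of log2 CPM, centred on each gene's mean, over the 6 libraries and among genes with a mean log2 CPM of at least 1. For Cxcl10 the 5 nearest were Iigp1 (distance 0.17), F830016B08Rik (0.18), Ccl2 (0.21), Pik3r3 (0.24) and Gm4951 (0.24). Iigp1 is an interferon-inducible GTPase, and Ccl2 is the monocyte attractant that acts on CCR2. For Ccl4 the 3 nearest were Gm12185 (0.10), 4930539J05Rik (0.13) and Dusp2 (0.14), a phosphatase that inactivates MAP kinases. The same search for other members was added after their values were seen. Cxcl9 was nearest to Nr4a3 (0.16), an orphan nuclear receptor, then to Ccr7 (0.21), Id3 (0.23), Ier5l (0.25) and Il12b (0.26). CCR7 guides dendritic cells and T cells to lymph nodes, and Il12b encodes a subunit of interleukin 12. Cxcl2 was nearest to the immediate-early gene Egr1 (0.20), with 1042 and 1132 counts in the libraries of number 2 and 417 to 498 in the others. Cxcl12 was nearest to Tnc (0.29), Lepr (0.46), Igfbp5 (0.62) and Kitl (0.72). Tnc encodes the matrix protein tenascin C and Kitl the stem cell factor that binds KIT. Tnc had 49, 54 and 1 counts in the controls, and Kitl 38, 22 and 1. Cxcl16 was nearest to Tlr12 (0.07), Adam8 (0.09) and Klf2 (0.09). No other member was nearer to Cxcl10 than Ccl4 (0.41), and Cxcl9 was at 0.59.

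Cxcl10 and Cxcl9 had the largest log2 fold changes of the 10 members over all 6 libraries, and all 10 were positive. This order and sign rested on single libraries. Without control replicate 3 Cxcl9 (0.42) was below Ccl4 (0.61), and without KO replicate 1 Cxcl9 (0.57) was below Ccl4 (0.71) and Cxcl2 (0.61). Without control replicate 2 Cxcl2 (1.24) was above Cxcl10 (1.22). With any 1 library left out, 9 of the 10 were positive. Cxcl9 and Cxcl10 had a median log2 fold change of 0.98, and the other 8 members 0.34, with a positive value in all 8. The difference of the medians was 0.64, and 0.36, 0.59 and 1.08 in the pairs of number 1, 2 and 3. In each library, the median log2 CPM of Cxcl9 and Cxcl10 minus that of the other 8 had a pooled SD of 0.29. That is a difference of levels, so its SD is not the spread of the 0.64. With Cxcl9 alone against the 8, the difference of median log2 fold changes was 0.42, an alternative chosen after the values were seen. With Ccl5 and Cxcl16 counted as interferon-inducible it was 0.39. The difference was not tested, because the genes were chosen with results known. Over all 10 members the median was 0.42, against 0.001 over all 13217 genes, of which 50.2% had a positive log2 fold change. Of the 10, 6 were higher in the KO in each of the 3 pairs (Cxcl9, Cxcl10, Cxcl2, Ccl4, Ccl5 and Ccl9), as were 15.1% of all genes. KO libraries lay wholly above the controls for 1 member, against 3.43% of all genes, and wholly below for 0, against 4.79%. With the replicate block 1 member passed higher and 0 lower, against 0.318% and 1.04% of all genes and 1.36% in either direction. At an unadjusted p under 0.05 in edgeR there were 2 members, Cxcl10 and Ccl4, against 3.9% of all genes. With the block 5 members were higher at that level (Cxcl9, Cxcl10, Ccl4, Ccl5 and Ccl9), against 4.43% of all genes.

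**Figure D4:**
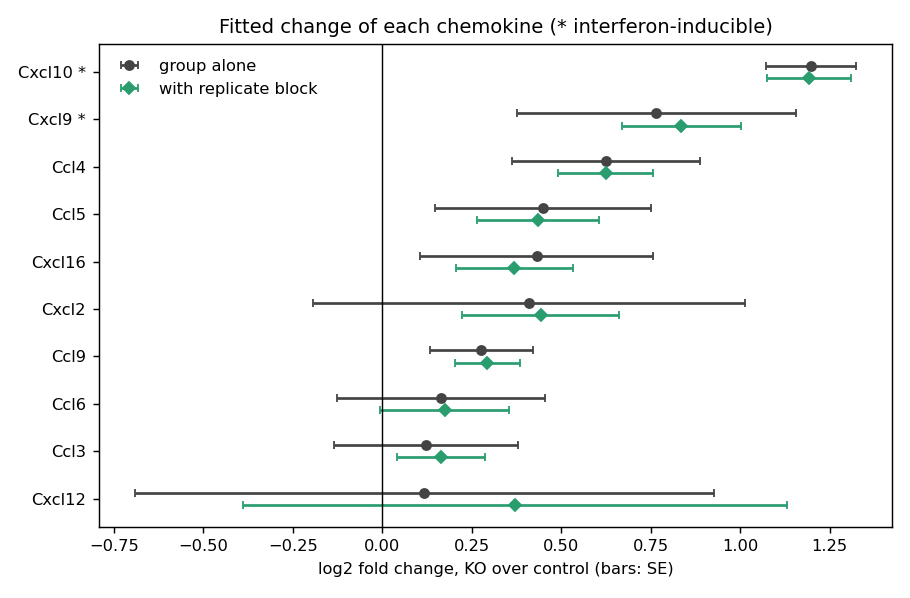
Log2 fold change of each chemokine, KO over control (x axis, bars give the SE), fitted on the group alone (circles) and with the replicate block (diamonds). All 10 circles lie above 0, Cxcl10 at 1.20 is the farthest from 0 with a narrow bar, and the block narrows most of the other bars.

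Levels can be compared between genes only per length, for which the deposited FPKM (fragments scaled for gene length and library total) were used. In the controls Ccl3 was the highest at 84.4 ± 32.8 FPKM, followed by Ccl9 at 43.5 ± 8.01, Ccl4 at 29.7 ± 8.93 and Ccl6 at 20.0 ± 5.94 FPKM (SD, n = 3). Cxcl9 (10.3 ± 4.85), Ccl5 (9.69 ± 2.21), Cxcl16 (9.58 ± 1.58) and Cxcl10 (9.003 ± 0.300 FPKM; SD, n = 3) did not differ beyond their spread. Cxcl2 (4.10 ± 3.15) and Cxcl12 (1.71 ± 1.52 FPKM; SD, n = 3) were the lowest. In the KO, Cxcl10 had 20.7 ± 3.07 FPKM (SD, n = 3), within the spread of Ccl6 (22.4 ± 6.22) and Cxcl9 (17.4 ± 4.36 FPKM; SD, n = 3). The order of the means of Ccl3, Ccl9 and Ccl4 at the top was the same in both groups. The ranges of Ccl9 and Ccl4 overlapped in the controls (35.9 to 51.9 and 21.2 to 39.0 FPKM). They also overlapped in the KO (51.3 to 53.5 and 36.6 to 62.0 FPKM). The 10 members gave 86.9% to 93.3% of the FPKM summed over the 30 chemokine genes examined, which are the members and the 20 further genes matched by symbol.

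**Figure D5:**
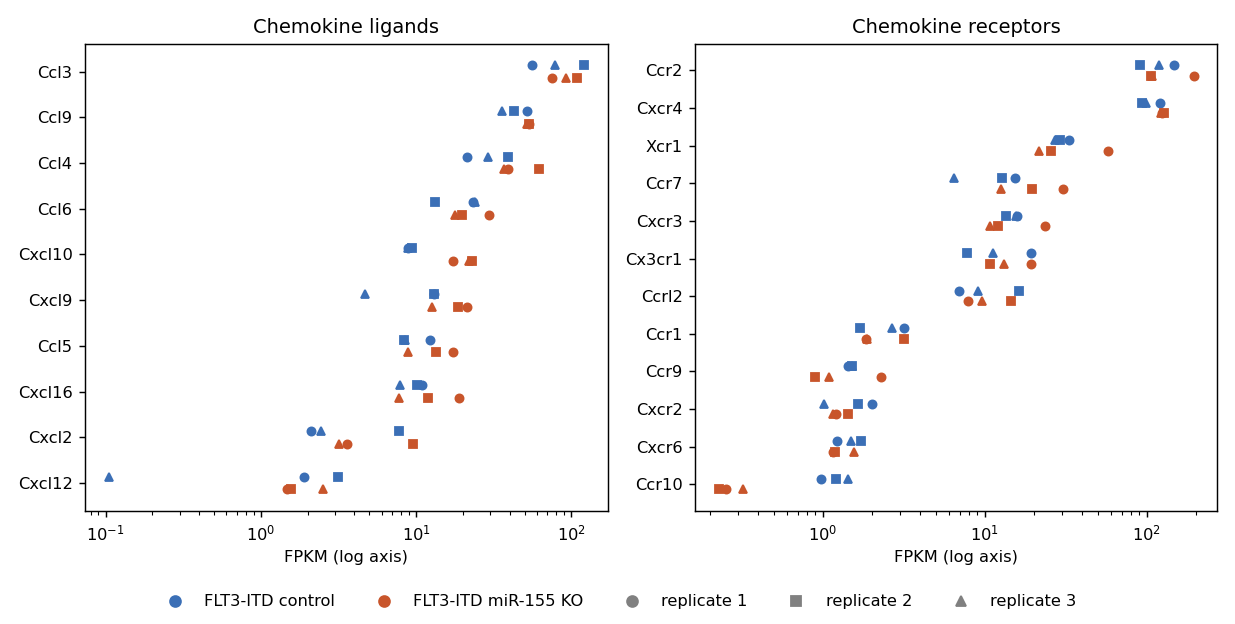
Deposited FPKM (x axis, log scale) of the 10 chemokines (left) and of the chemokine receptors named in the text and tested (right) in each library, blue for control and orange for KO, with the marker shape giving the replicate number. The KO libraries of Cxcl10 lie to the right of its controls and those of Ccr10 to the left, while most other genes overlap.

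Among the receptors, 13 of 23 chemokine receptor genes were tested and 0 passed in edgeR or DESeq2, with a median log2 fold change of -0.01. At an unadjusted p under 0.05 in edgeR there was 1 receptor, Ccr10, against 3.9% of all genes. Cxcr3, the receptor of CXCL9 and CXCL10, had 14.98 ± 1.20 FPKM in the controls and 15.4 ± 6.96 FPKM in the KO (SD, n = 3), with a log2 fold change of 0.05 ± 0.31 (SE). Cxcr4, the CXCL12 receptor of stem cells, had 105 ± 14.1 and 125 ± 2.40 FPKM (SD, n = 3) and a log2 fold change of 0.26 ± 0.12 (SE). Other receptors of the ligands were low, with means over all libraries of 2.41 FPKM for Ccr1, 1.41 for Cxcr2 and 1.39 FPKM for the CXCL16 receptor Cxcr6. Their log2 fold changes were -0.14, -0.32 and -0.19. Ccr3 was not tested, with 55 and 15 counts in control and KO replicate 1 and 1 to 3 in the other libraries. With the replicate block 1 receptor passed, Ccr7, against 1.36% of all genes in either direction. It rose by 0.85 ± 0.12 (SE; adjusted p = 0.0199 in edgeR, and 0.9996 without the block). Ccr7 had 285, 218 and 104 counts in the controls and 409, 295 and 179 in the KO. Ccr10, a receptor of plasma cells and T cells in epithelia, had 16, 18 and 20 counts in the controls and 3, 3 and 4 in the KO. Its log2 fold change of -2.13 ± 0.37 (SE) did not pass (adjusted p = 0.140 in edgeR, 0.0666 with the block). The plasma cell marker sum given above differed between the groups in the same direction, and its part was not tested. Ccr2 (0.20), Xcr1 (0.24), Cx3cr1 (0.18), Ccrl2 (-0.01) and Ccr9 (-0.05, log2 fold change) did not pass.

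The other chemokines matched by symbol were mostly at low counts. Of 20 genes 8 were tested and 0 passed in edgeR or DESeq2. At an unadjusted p under 0.05 in edgeR there was 1, Ccl2, against 3.9% of all genes. Of the 8 tested, 2 had a positive and 6 a negative log2 fold change (median -0.19). Ccl2 had 16, 13 and 8 counts in the controls and 18, 33 and 24 in the KO. After scaling its KO libraries lay above the controls, and its log2 fold change of 1.28 ± 0.33 (SE) did not pass (adjusted p = 0.460 in edgeR). Ccl22, a dendritic cell chemokine that binds CCR4, had a log2 fold change of 0.61 ± 0.41 (SE). Symbols of 8 further chemokines were not matched and were not analysed here.

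Genes that act upstream of the chemokines were examined as lists. In the interferon chain from ligand to transcription factors, 12 of 13 genes were tested and 0 passed in edgeR or DESeq2. At an unadjusted p under 0.05 in edgeR there were 2, Irf1 and Irf7, against 3.9% of all genes. Of the 12 tested, 11 had a positive log2 fold change and the median was 0.25. Irf1, a transcription factor of the interferon-gamma response, had a log2 fold change of 0.39 ± 0.12 (SE), and the KO libraries lay above the controls. Irf7, the amplifier of type I interferon, had 0.92 ± 0.35 (SE; adjusted p = 0.9996 in edgeR). With the replicate block it was the 1 gene of the list that rose (0.88 ± 0.09, SE; adjusted p = 0.00477 in edgeR), against 0.318% of all genes. Interferon gamma itself (Ifng) had 6, 19 and 10 counts in the controls and 6, 16 and 8 in the KO. Of the NF-kB and TNF list, 14 of 14 genes were tested, 0 passed in edgeR, at an unadjusted p under 0.05 or in DESeq2, and 11 had a positive log2 fold change (median 0.12). Tnfrsf1a, which encodes a TNF receptor, had 0.20 ± 0.09 (SE) and Tnf 0.35 ± 0.23 (SE). In the signalling chain below the receptors (13 tested, 12 positive, median 0.05), Dock2, which drives leukocyte migration, had 0.11 ± 0.08 and the G protein regulator Rgs2 0.16 ± 0.17 (SE), and again 0 passed in edgeR, at an unadjusted p under 0.05 or in DESeq2. With the block 0 genes of the NF-kB and signalling lists passed.

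Among 10 genes that process or retain chemokines, 0 passed in edgeR or DESeq2. At an unadjusted p under 0.05 in edgeR there were 4 (Mmp8, Mmp9, Sdc1 and Sdc4), all lower, against 3.9% of all genes in either direction. Of the 10, 4 had a positive and 6 a negative log2 fold change, and the median was -0.05. The heparan sulfate proteoglycan Sdc4 had -0.93 ± 0.22 and the protease Mmp9 -0.81 ± 0.21 (SE), with adjusted p of 0.401 and 0.470 in edgeR. With the block 1 gene fell, against 1.04% of all genes. It was Sdc1, a proteoglycan that also marks plasma cells (-1.27, adjusted p = 0.0158 in edgeR). Dpp4, the protease that trims and inactivates CXCL10 and CXCL12, had a log2 fold change of 0.29 ± 0.28 (SE) and was described after its value was seen.

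Marker lists of cells that make chemokines gave 0 genes passing in edgeR without the block. DESeq2 called 3 plasma cell genes (Mzb1, Jchain and Prdm1) and 4 neutrophil genes (S100a9, Ngp, Camp and Ltf), all lower in the KO. In the other marker lists it called 0, and over all genes 0.961% in either direction. At an unadjusted p under 0.05 in edgeR there were 5 plasma cell, 5 neutrophil and 1 T cell gene (Cd2), all lower. The other lists had 0, and 3.9% of all genes had such a p in either direction. In the neutrophil and monocyte list the other 2 tested genes had a positive log2 fold change. Its 8 genes summed to 1452, 1013 and 999 CPM in the controls and 1003, 1060 and 1110 CPM in the KO, so the sums overlapped. Median log2 fold changes were -0.31 for macrophage (9 tested), -0.24 for T and NK cell (8 tested), 0.26 for dendritic cell (8 tested), -0.70 for neutrophil and monocyte (7 tested) and 0.14 for stromal and endothelial genes (7 tested). They were -0.13 for megakaryocyte (3 tested), -1.54 for plasma cell (5 tested) and -0.12 for gate genes (7 tested). In the fit with the block the macrophage median changed sign, to 0.07. The other block medians were -0.23 for T and NK cell, 0.15 for dendritic cell, -0.71 for neutrophil and monocyte and 0.10 for stromal and endothelial genes. They were -0.23 for megakaryocyte, -1.54 for plasma cell and -0.11 for gate genes. With the block 4 plasma cell genes fell (Mzb1, Jchain, Prdm1 and Sdc1), against 1.04% of all genes, and 0 genes of the other marker lists passed. Summed CPM of 9 T and NK cell genes was 77.9 to 94.1 in the controls and 76.0 to 88.2 in the KO. The part of these cell types in the chemokine levels was not tested.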

How the data were processed

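RNA-seq counts per gene came from 6 libraries of pooled Lin- cKit+ Sca1+ bone marrow cells, 3 per group, grouped by the labels. The authors deposited counts without normalization and FPKM, which are those counts times a gene factor and a library factor. They also deposited the log2 fold change and adjusted p-value of their own comparison. Novoalign 2.08.01, DESeq2 1.10.1 and the build mm10 are named per the submitters' processing notes. Neither the read counter nor a strand setting is given in the sources used here, so reads of overlapping or antisense genes cannot be told apart.

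Counts were tested for KO against control with edgeR 4.0.16 in R 4.3.3 (TMM, filterByExpr with a minimum count of 10 and a minimum total of 15, quasi-likelihood test with the group as the 1 factor, Benjamini-Hochberg over all 13217 genes, threshold 0.05). Log2 CPM used a prior count of 2, and the SE came from the F statistic. Alternatives used limma 3.58.1 and DESeq2 1.42.0. The fit was tested on simulated data. Promoters and miRNAs came from RefSeq (GRCm38.p6) and gene positions from GENCODE M21 (GRCm38, the assembly of mm10).

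Replicate numbers come from the titles, which do not say what they share. Deviations of equal numbers correlated by r = 0.57, 0.53 and 0.22, all above the limit of 0.1. The numbers were therefore treated as pairs in the values given per pair and in the fit with the replicate block. The main test used the group alone and ignored the numbers. Control replicate 3 with KO replicate 2, a couple of unequal number, also exceeded the limit (r = 0.13). The remaining couples of unequal number lay at -0.51 to 0.04, so number 3 is the least clear pair.

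The members and gene lists were chosen with earlier results of these data known. Named were the 10 members, the tested receptors (1 is not reported here), up to 2 genes of each other list with the smallest p, and the genes nearest in pattern to Cxcl10 (5) and Ccl4 (3). Any other gene was picked with its values known; these are Cxcl11, Ifng, Ccr3, Lepr, Col1a1, Adam10, Adam17, Sdc1, Dpp4, the nearest genes of Cxcl9, Cxcl2, Cxcl12 and Cxcl16, and genes listed to explain a count.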

Additional observations from a re-analysis of the deposited data

How the results depend on the processing

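The difference between interferon-inducible and other chemokines kept its direction in every alternative run, between 0.39 (with Ccl5 and Cxcl16 in the first group) and 0.73, and 0.57 to 0.73 when 1 library was left out. Cxcl10 passed with other size factors, DESeq2, limma-voom, no low-count filter, a stricter filter, the replicate block and library sizes without immunoglobulin genes. Leaving out 1 library gave 0 to 1 passing members and 0 to 27 passing genes, with fewer samples in each such fit. Where 0 genes passed in edgeR (without control replicate 1 or 3), 766 and 356 had an unadjusted p under 0.05. Without both libraries of number 2 or of number 3, 0 members passed. Passing genes, 21 in the main test, were then 10 and 6. The replicate block gave 180 (42 higher, 138 lower). DESeq2 gave 127 (7 higher), testing all genes unfiltered gave 97 (4 higher), and a threshold of 0.1 gave 32 (3 higher). The causes were not tested. Over 16 alternatives, 145 of 159 member values kept direction and side of the threshold, 7 no longer passed (all Cxcl10) and 7 reversed. Cxcl2 was left out by the stricter filter. The reversals were of genes that did not pass, and leaving out 1 library gave -0.0926 to 0.45 for Ccl3, -0.12 to 0.32 for Ccl6, -0.24 to 1.24 for Cxcl2 and -0.43 to 0.85 for Cxcl12. The other members kept their sign, at 0.42 to 1.00 for Cxcl9, 0.003 to 0.70 for Cxcl16, 0.37 to 0.86 for Ccl4, 0.17 to 0.68 for Ccl5 and 0.16 to 0.45 for Ccl9. Cxcl2 had 21 to 26 counts in 4 libraries, the thinnest coverage of the members beside Cxcl12 in control replicate 3 (7 counts). Without both libraries of number 3, Cxcl12 had -0.70. The replicate block changed no call of a member. Deposited FPKM gave the same ratios of group means as CPM within the spread between replicates. The replicate number as a term and Cxcl9 alone were chosen after seeing the data.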
